A study of Mus musculus with 24 samples.

Results

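Genes whose products act on dendritic cells were followed across natural killer (NK) cells sorted from tumours: the growth factor genes Flt3l, Csf2 and Csf1 and the chemokine genes Xcl1 and Ccl5. They were taken by symbol and are 5 of the 53465 genes in the count table. The table held RNA-seq counts for 24 libraries, 6 for each of 4 NK populations: the CD11b+ cells without CD69 (CD11b+CD69-) or with it (CD11b+CD69+), and the CD27+ cells without it (CD27+CD69-) or with it (CD27+CD69+). All came from female wild-type B6 mice that carried B16F10 tumours, a mouse melanoma line, placed under the skin of the flank and taken at day 14. Each library was made from 100 sorted cells. The study asked how IL-2 and IL-15 signalling bears on the production of FLT3LG by NK cells. No library was treated with a cytokine or a blocking agent, so the contrasts are between surface phenotypes. CD11b is an integrin chain carried by mature mouse NK cells, CD27 is a receptor for CD70 that less mature ones display, and CD69 is a C-type lectin put on the surface soon after stimulation.

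FLT3LG drives the development and upkeep of dendritic cells through the receptor FLT3, and NK cells are a known source of it in tumours. XCL1 attracts cross-presenting type 1 dendritic cells, which carry its receptor XCR1, and CCL5 attracts T cells, NK cells and myeloid cells. CSF2 (GM-CSF) supports the survival and maturation of dendritic cells and other myeloid cells, while CSF1 (M-CSF) acts mainly on monocytes and macrophages.

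Total counts ran from 1213914 to 2671533 per library, so that 3 counts, the floor used here, stood for 1.15 to 2.47 CPM (counts scaled to library size). The labels name melanoma as the cell type, whereas NK markers were abundant in all 24 libraries: 10 NK genes summed to 41728 ± 2613, 33812 ± 2959, 14974 ± 2642 and 16123 ± 1542 CPM (mean ± SD, n = 6 each) in the order of the populations given above, which is kept below. The 10 were Ncr1, Klrb1c, Klrk1, Klrd1, Eomes, Tbx21, Prf1, Gzma, Gzmb and Nkg7. The sum weighs them by abundance: Gzma averaged 12464, 9791, 3830 and 2618 CPM and Gzmb 9353, 7559, 1068 and 1555. Klrk1 averaged 2767, 3022, 2187 and 2755 CPM, so the sum is not a measure of NK cell content alone. Markers of some other cells differed between the populations. The 8 T cell markers summed to 19.5–64.4, 28.8–144, 187–789 and 434–1181 CPM, and Cd3e, the epsilon chain of the T cell receptor complex, averaged 0.082, 1.45, 85.8 and 139 CPM. Cd3e, Cd5, Cd6 and Cd8a were at or near 0 in CD11b+ libraries and passed the low-count filter through the CD27+ libraries. Their direction was thus nearly fixed beforehand, and the calls of T cell markers are not counted. Cd3d averaged 3.33, 12.3, 257 and 429 CPM, and Trac 35.1, 50.0, 154 and 299 CPM. The 8 fibroblast markers were all at 0 counts in CD11b+CD69+, summed to at most 8.02 and 11.6 CPM in CD11b+CD69- and CD27+CD69+, and reached 4289 ± 3333 CPM (11.6–9285) in CD27+CD69- libraries. Melanoma markers there ran from 1.37 to 5860 CPM, with the highest sum in replicate 6. Of 6 dendritic cell markers, Clec9a, Cd209a and Siglech were at 0 in every library, and Flt3 had 2 and Xcr1 23 counts in all. The other one, the transcription factor gene Zbtb46, averaged 6.51, 28.3, 9.90 and 20.6 CPM. It was higher in every CD11b+CD69+ library than in any CD11b+CD69- library, but passed in no comparison. The part of these other cells in each CD27 result below was not tested. In bulk libraries, fewer cells of a type and less RNA per cell cannot be told apart.

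Flt3l (ENSMUSG00000110206; GRCm38, chr7:45129788-45136432, minus strand, protein coding, 3878 bases of exon in 13 annotated transcripts) was present at similar modest levels in all 4 populations. Because the study turns on this gene, the 250 bases before its RefSeq start are shown first (GRCm38.p6, minus strand, chr7:45136433-45136682), with motif matches in capitals.
Flt3l: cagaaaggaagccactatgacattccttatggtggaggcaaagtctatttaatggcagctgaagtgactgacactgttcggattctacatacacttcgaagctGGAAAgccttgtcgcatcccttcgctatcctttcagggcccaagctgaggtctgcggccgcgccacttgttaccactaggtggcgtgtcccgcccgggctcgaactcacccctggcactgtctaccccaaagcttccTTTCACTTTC
The capitals at the end of the window, starting at base -10 from the start, are on the reverse strand the letters GAAA, any 2 bases and GAAA again, an interferon-stimulated response element pattern found on either strand in 2.98% of 32851 such windows. The other capitals, at -147, spell GGAAA, the core bound by NFAT, which 55.6% of windows hold. STAT5, the factor that IL-2 and IL-15 receptors activate, binds TTCNNNGAA, and these letters do not occur in the window (7.02% of windows hold them). A match is a description of letters and not a measured site.

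Flt3l ranged from 32.5 to 61.6 CPM (median 52.8) in CD11b+CD69- libraries and from 25.7 to 60.4 (median 40.4) in CD11b+CD69+. It ranged from 14.0 to 75.9 CPM (median 41.2) in CD27+CD69- and from 38.5 to 75.7 (median 61.7) in CD27+CD69+. The 4 ranges overlapped, and the lowest and the highest of all 24 libraries were both CD27+CD69-. Means were 50.1 ± 10.2, 41.7 ± 16.5, 42.2 ± 19.8 and 59.1 ± 14.7 CPM, so CD27+CD69+ stood highest and no neighbours in that order differed beyond their spread. In edgeR's quasi-likelihood test Flt3l passed the threshold (Benjamini-Hochberg adjusted p under 0.05 over 10536 genes) in none of the comparisons. The calls over all genes made up 2.74% for CD69+ against CD69- in CD11b+ cells, 1.85% for the same contrast in CD27+ cells, 12.4% for CD27+ against CD11b+ in CD69- cells and 1.9% for that contrast in CD69+ cells. They made up 11% for CD27+CD69+ against CD11b+CD69-, 6.19% for CD27+CD69- against CD11b+CD69+, and 0.579% for the difference between the CD69 contrasts.

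With CD69, the fitted Flt3l difference was -0.27 on the log2 scale (95% interval -0.88 to 0.35, edgeR adjusted p = 0.792) in CD11b+ cells and 0.48 (-0.14 to 1.09, adjusted p = 0.659) in CD27+ cells. CD27+ minus CD11b+ gave -0.24 (-0.86 to 0.37, adjusted p = 0.705) in CD69- cells and 0.51 (-0.11 to 1.12, adjusted p = 0.593) in CD69+ cells. These intervals reach to about a log2 unit upward in the CD27+CD69+ comparisons, so they still hold a change of that size. The CD69 contrasts of the CD27+ and CD11b+ cells differed by 0.75 (-0.12 to 1.62, adjusted p = 0.647). Flt3l lies 1027 bases from Rpl13a, a ribosomal protein gene, and shares 856 exon bases on the same strand with Gm45713, which had 0 counts. The 0 does not show how reads in the shared bases were assigned, and some may be missing from the Flt3l counts.

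**Figure D1:**
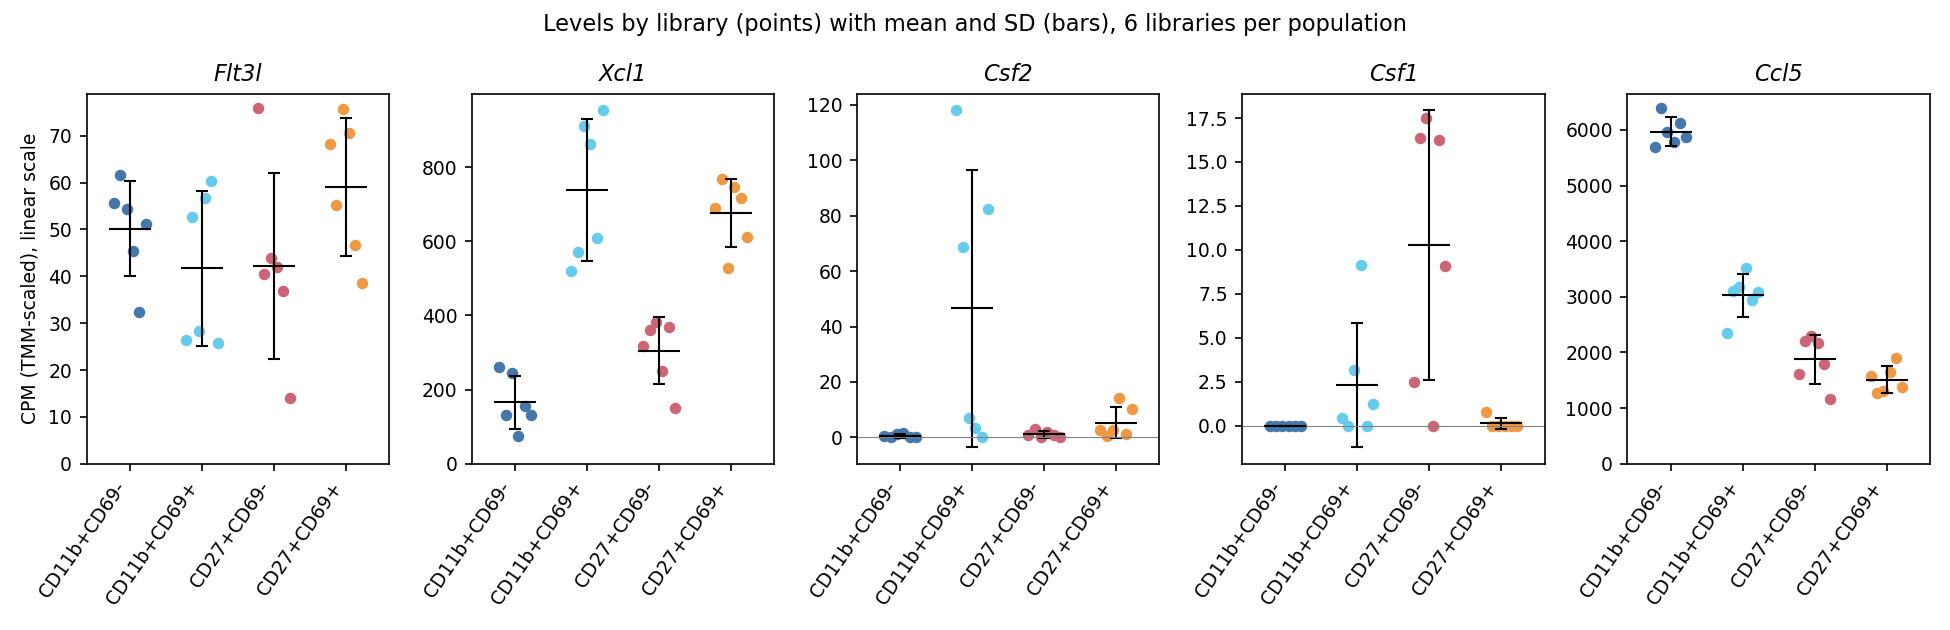
Level of each gene in CPM (TMM-scaled, linear axis, a separate scale per gene) by population, with 1 point per library and bars for the mean and SD of 6 libraries. Flt3l overlaps in all 4 populations, Xcl1 is higher in both CD69+ populations, Ccl5 is highest in CD11b+CD69-, and Csf2 is spread from 0 to 118 CPM among the CD11b+CD69+ libraries.

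Csf2 (ENSMUSG00000018916; chr11:54247271-54249667, minus strand, 4 exon blocks, 800 bases of exon) was found mainly in CD11b+CD69+ cells, and unevenly among their libraries. These 6 libraries held 272, 124, 15, 7, 0 and 199 counts, or 118, 68.7, 6.84, 3.36, 0 and 82.4 CPM. The CD11b+CD69- libraries held 0 to 4 counts each, the CD27+CD69- libraries 0 to 7 and the CD27+CD69+ libraries 1 to 26. Replicates 1, 2 and 6 of CD11b+CD69+ thus exceeded every library of the other populations, and the other three lay within their range. Group means were 0.553 ± 0.705, 46.6 ± 50.0, 1.18 ± 1.24 and 5.27 ± 5.61 CPM.

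Csf2 was higher in CD69+ than in CD69- cells of the CD11b+ kind by 6.21 on the log2 scale (SE 1.24, edgeR adjusted p = 0.00353), although the groups overlapped at 0. The call held when each of the 12 libraries was left out in turn (5.69 to 6.79), but limma-voom gave 4.46 with an adjusted p of 0.190. In a fit of the CD11b+ populations alone Csf2 did not pass the low-count filter, so the call could not be checked there. In CD27+ cells the same contrast was 2.07 (SE 1.10, adjusted p = 0.535). CD27+CD69- minus CD11b+CD69+ was -5.20 (SE 1.18, adjusted p = 0.00520). That call was lost with limma-voom (-3.52, adjusted p = 0.261) and with marker sums of other cells as covariates (-8.42 with fibroblast, melanoma and macrophage sums, -1.18 with the T cell sum). Csf2 passed the low-count filter through the population in which it is high, so its calls are not counted together with those of the other members. Among CD69+ cells CD27+ minus CD11b+ was -3.14 (SE 1.03, adjusted p = 0.137), which did not pass. CD27+CD69+ minus CD11b+CD69- was 3.07 (SE 1.16, edgeR adjusted p = 0.0913), which passed with DESeq2 (3.22, adjusted p = 0.0376). Among CD69- cells CD27+ minus CD11b+ was 1.01 (SE 1.22, adjusted p = 0.699) at counts near the floor. The CD69 contrasts of CD27+ and CD11b+ cells differed by -4.15 (SE 1.61, adjusted p = 0.352).

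The Csf2 transcript is a textbook target of AU-rich element decay, and its 3′ UTR carries the pattern densely. Of its 317 bases, the 30 shown (GRCm38, minus strand, chr11:54247329-54247358) hold 5 overlapping copies of ATTTA, in capitals.
Csf2 3′ UTR: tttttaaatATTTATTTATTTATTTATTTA
The whole 3′ UTR holds 9 copies of ATTTA, where the median over 9791 tested genes was 2, and 4 copies of the longer TTATTTATT. As many of the longer pattern occurred in 25 of those genes (0.255%). Flt3l and Ccl5 had 0 copies of ATTTA in their 3′ UTRs, Xcl1 had 1 and Csf1 had 4. Zfp36, which encodes tristetraprolin, a protein that binds such elements and speeds decay, was at 594 ± 56.1 CPM in CD11b+CD69- and 316 ± 45.0 CPM in CD11b+CD69+ libraries, with no overlap. It fell between them, by 0.91 on the log2 scale (SE 0.17, edgeR adjusted p = 0.00162). Whether Zfp36 has a part in the level of Csf2 was not tested. In CD27+ cells Zfp36 was at 357 ± 108 CPM without CD69 and 259 ± 59.0 CPM with it (-0.47, edgeR adjusted p = 0.192). Csf2 averaged 1.18 and 5.27 CPM there. Zfp36 was the 1 of 6 tested mRNA decay factors to pass in the CD11b+ contrast, where 2.74% of all genes were called. None of the 6 passed in the CD27+ contrast (1.85% called). The medians of the 6 were -0.30 against 0.00 for all genes and -0.05 against -0.01. Il3, the neighbour of Csf2 at 15636 bases and a related growth factor gene, had 0 counts in all 24 libraries.

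Csf1 (ENSMUSG00000014599; chr3:107741048-107760469, minus strand, 5281 bases of exon in 7 transcripts) was near the detection limit and seen chiefly in CD27+CD69- libraries. These held 5, 36, 37, 0, 38 and 11 counts, or up to 17.5 CPM (10.3 ± 7.66). The CD11b+CD69- libraries had 0 counts throughout, which allows up to 1.15 to 1.48 CPM per library at 3 counts. CD11b+CD69+ libraries held 1, 0, 7, 19, 0 and 3 counts, and CD27+CD69+ libraries 2 counts in 1 library and 0 in the other five. With 159 counts in total Csf1 did not pass the low-count filter, and it was tested only in the fit with no filter. There its adjusted p was 0.00395 for CD27+CD69- against CD11b+CD69-, 0.0494 for CD27+CD69+ against CD27+CD69- and 0.117 for CD69+ against CD69- in CD11b+ cells. Csf1 was highest in the population with the high fibroblast sums: over 24 libraries its correlation with the fibroblast sum was 0.589 (Pearson r, log2 CPM), and -0.110 once each population's mean was removed. Whether these counts came from NK cells was not tested.

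Xcl1 (ENSMUSG00000026573; chr1:164931644-164935527, minus strand, 3 exons, 523 bases) was the member that rose with CD69 in both CD11b+ and CD27+ cells. The 250 bases before its RefSeq start are shown beside those of Flt3l because Xcl1 moved where Flt3l did not pass (GRCm38.p6, minus strand, chr1:164935523-164935772).
Xcl1: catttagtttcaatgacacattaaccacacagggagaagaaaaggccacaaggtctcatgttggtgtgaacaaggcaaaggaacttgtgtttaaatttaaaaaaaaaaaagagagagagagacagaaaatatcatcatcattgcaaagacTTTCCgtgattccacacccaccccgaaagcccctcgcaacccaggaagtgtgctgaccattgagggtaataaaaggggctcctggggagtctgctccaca
The only motif match, in capitals at -100, is TTTCC, the reverse strand of GGAAA. Neither TTCNNNGAA nor TGANTCA, bound by AP-1, nor an NF-kB pattern occurs in either window (7.02%, 6.75% and 5.93% of windows hold them), and TATAAA, in 12.4% of windows, does not occur in them.

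Xcl1 ran from 74.9 to 260 CPM (median 143) in CD11b+CD69- libraries and from 520 to 955 (median 736) in CD11b+CD69+. Every CD69+ library of this pair lay above every CD69- library. The difference was 2.15 on the log2 scale (SE 0.24, edgeR adjusted p = 2.81e-06), a 4.45-fold higher level, where 2.74% of all genes were called in either direction. It stayed between 2.00 and 2.33 when each of the 12 libraries was left out.

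In CD27+CD69- libraries Xcl1 ran from 150 to 383 CPM (median 340), and in CD27+CD69+ from 528 to 769 (median 703), again with no overlap. The difference was 1.14 (SE 0.24, edgeR adjusted p = 0.00700), or 2.21-fold, where 1.85% of genes were called. With the fibroblast, melanoma and macrophage sums as covariates it was 0.09 (adjusted p = 1.00), and with the T cell sum 0.90 (adjusted p = 0.0538). The fibroblast sums nearly coincide with the CD27+CD69- group, so that this fit and the population cannot be told apart. The CD69 contrast in CD27+ cells minus that in CD11b+ cells was -1.01, which did not pass (SE 0.33, adjusted p = 0.217).

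Among CD69- cells Xcl1 was higher in CD27+ than in CD11b+ libraries by 0.88 (SE 0.24, edgeR adjusted p = 0.0129), with overlapping ranges. With the T cell sum as a covariate this difference was -0.32, and in a fit of these populations alone its adjusted p was 0.0558. Among CD69+ cells the levels were 676 ± 91.1 CPM in CD27+ and 738 ± 192 CPM in CD11b+, a difference of -0.13 (95% interval -0.60 to 0.35, adjusted p = 0.928). The order of Xcl1 levels was thus CD11b+CD69+ and CD27+CD69+, which did not differ beyond their spread, then CD27+CD69- at 305 ± 90.1 CPM and CD11b+CD69- at 166 ± 71.8 CPM. CD27+CD69- minus CD11b+CD69+ was -1.27 (SE 0.24, adjusted p = 0.000894), and CD27+CD69+ minus CD11b+CD69- was 2.03 (SE 0.24, adjusted p = 1.07e-06). The former was -0.09 with the fibroblast, melanoma and macrophage sums as covariates, and the latter 0.58 with the T cell sum, neither of which passed. Gm20743, on the opposite strand, shares 98 exon bases with Xcl1 and held 1353 counts against 24276 for Xcl1. Without strand information, reads in the shared bases cannot be told apart.

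Ccl5 (ENSMUSG00000035042; chr11:83525778-83530518, minus strand, 3 exon blocks, 960 bases of exon) was by far the most abundant member and was lower in every population than in CD11b+CD69-. It ran from 5684 to 6393 CPM (median 5916) in CD11b+CD69- and from 2344 to 3512 (median 3092) in CD11b+CD69+. In CD27+CD69- it ran from 1165 to 2294 CPM (median 1988) and in CD27+CD69+ from 1266 to 1904 (median 1481). By mean level it ranked 7th, 18th, 34th and 63rd among all genes in the 4 populations. The CD11b+ ranges did not overlap each other or those of the CD27+ populations, while the CD27+ ranges overlapped each other.

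With CD69, Ccl5 fell by 0.98 on the log2 scale in CD11b+ cells (SE 0.13, edgeR adjusted p = 2.04e-05), to 0.507 of its level. In CD27+ cells the difference was -0.31 (SE 0.13, adjusted p = 0.291), below the CD69- median in 6 of 6 libraries. That contrast passed when CD27+CD69- replicate 6, the library with the highest melanoma marker sum, was left out (-0.41, adjusted p = 0.0470), and when counts were scaled to 4 NK receptor genes (-0.58, adjusted p = 0.00147), a scaling that moved the median of all genes by -0.33 in this comparison. The contrasts differed by 0.67 (SE 0.18, adjusted p = 0.0933), which passed with DESeq2 (0.64, adjusted p = 0.0218) and limma-voom (0.68, adjusted p = 0.0359).

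CD27+ libraries had less Ccl5 than CD11b+ libraries. The log2 difference was -1.67 among CD69- cells (SE 0.13, edgeR adjusted p = 1.16e-09), where 12.4% of all genes were called. Among CD69+ cells its 95% interval was -1.26 to -0.74 (SE 0.13, adjusted p = 1.57e-05), where 1.9% were called. CD27+CD69+ minus CD11b+CD69- was -1.98 (SE 0.13, adjusted p = 4.30e-11), and CD27+CD69- minus CD11b+CD69+ was -0.69 (SE 0.13, adjusted p = 0.000773). The last was -0.11 when scaled to the NK receptor genes, which moved the median of all genes by 0.66, and -0.35 with the marker covariates, and passed in neither. All 10 NK markers were also lower in CD27+CD69- than in CD11b+CD69- libraries, with a median of -1.01. Over the 24 libraries Ccl5 followed the NK marker sum, with r = 0.925, and with r = 0.814 within populations. Libraries, depth and scaling are shared by both measures, and Gzma and Gzmb weigh most in the sum of CD11b+ libraries.

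**Figure D2:**
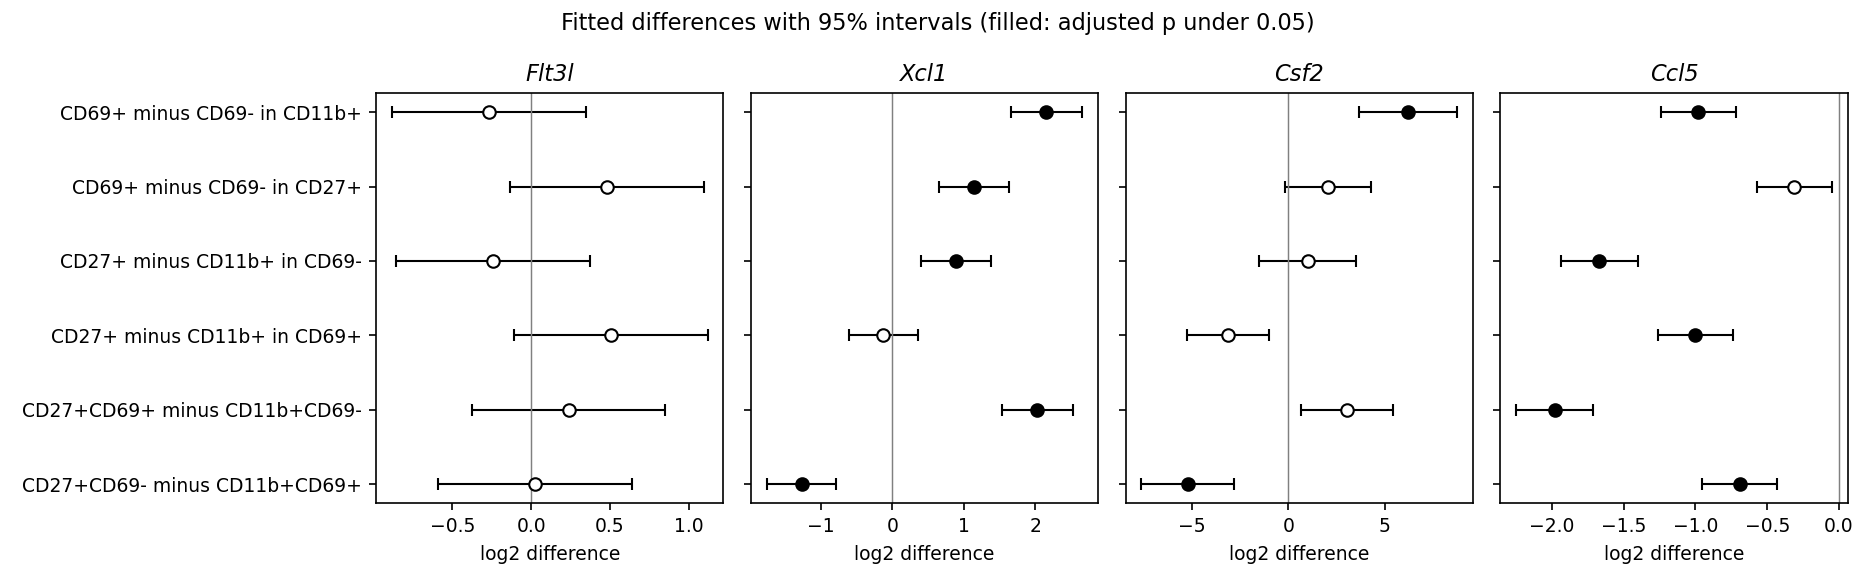
Fitted log2 differences (x axis, a separate scale per gene) with 95% intervals for 6 comparisons of the 4 populations, filled where the edgeR adjusted p was under 0.05. All 6 Flt3l intervals cross 0, while Xcl1 with CD69 is 2.15 and 1.14 and Ccl5 is -0.98 and -0.31.

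Xcl1 and Ccl5 moved in opposite directions with CD69 in CD11b+ cells, so their ratio within each library was compared, which does not depend on the scaling of libraries. There were 39.1 and 4.19 Ccl5 counts per Xcl1 count in CD69- and CD69+ cells of the CD11b+ kind, and 6.28 and 2.23 in those of the CD27+ kind (geometric means, n = 6 each). On the log2 scale Xcl1 relative to Ccl5 was -5.29 ± 0.67, -2.07 ± 0.29, -2.65 ± 0.33 and -1.16 ± 0.24. It was higher in CD69+ libraries by 3.22 in CD11b+ and 1.49 in CD27+ cells, with no overlap in either. CD27+ minus CD11b+ was 2.64 in CD69- and 0.91 in CD69+ cells, again with no overlap. The pair was chosen after its opposite movement was seen, so these values are a description. Over all 24 libraries the levels of Xcl1 and Ccl5 had r = -0.510, whereas within populations r was 0.473, so libraries of a population with more Xcl1 tended also to hold more Ccl5.

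**Figure D3:**
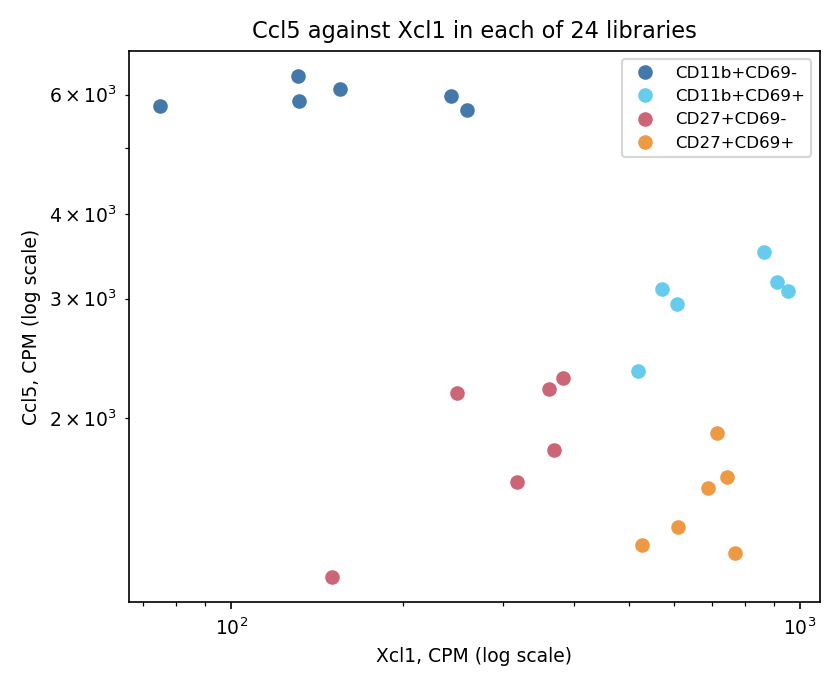
Ccl5 against Xcl1 in each of the 24 libraries, both in CPM on log axes, coloured by population. CD11b+CD69- libraries lie at the upper left, with 5684 to 6393 CPM of Ccl5 and at most 260 CPM of Xcl1, and CD27+CD69+ libraries at the lower right.

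Per kilobase of exon, Ccl5 was highest in each population, from 6215 ± 268 CPM per kb in CD11b+CD69- to 1575 ± 253 in CD27+CD69+. Xcl1 followed, from 317 ± 137 in CD11b+CD69- to 1412 ± 368 in CD11b+CD69+. Flt3l stood at 10.7 ± 4.25 to 15.2 ± 3.79 CPM per kb, below the 58.2 ± 62.5 of Csf2 in CD11b+CD69+ and above its 0.691 ± 0.882 in CD11b+CD69-. Csf1 was at most 1.95 ± 1.45 CPM per kb. The lengths join the exons of all annotated transcripts: 13 for Flt3l, 7 for Csf1, 2 for Ccl5 and 1 each for Xcl1 and Csf2. A joined length can exceed that of the RNA present, so Flt3l and Csf1 may stand too low beside Xcl1 and Csf2.

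The genes whose levels over the 24 libraries were most like each member are given by Pearson r of log2 CPM, as a description. Xcl1 was closest to Serpina3g (r = 0.932), Mndal (0.902), Lgals3bp (0.897) and Shisa5 (0.896). Ccl5 was closest to Klf2 (0.957), a transcription factor of quiescent lymphocytes, and to Actg1 (0.952), Pik3r1 (0.940) and Plek (0.933). Csf2 was closest to Cd82 (0.713), Xpo4 (0.694), Isyna1 (0.683) and Il2ra (0.662), the last encoding the alpha chain of the IL-2 receptor. For Flt3l the values were lower, with Prkd2 at 0.754, Cbfb at 0.700, Sept6 at 0.691 and the kinase gene Lck at 0.687. Csf1 was most like Anxa3 (0.759), Plpp3 (0.730), Nid1 (0.718) and Igfbp7 (0.711), the last a gene of a secreted matrix-associated protein. Within populations the values were 0.617 to 0.761 for Flt3l, 0.488 to 0.656 for Xcl1, 0.441 to 0.679 for Csf2, 0.295 to 0.415 for Csf1 and 0.280 to 0.676 for Ccl5. The points share library and depth in all of them.

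Of 28 other ligand genes for dendritic cells or their precursors, 10 passed the low-count filter. With CD69 in CD11b+ cells Ltb, which encodes the lymphotoxin beta chain, rose by 2.30 (SE 0.41, edgeR adjusted p = 0.00118), from 15.8 ± 11.7 to 78.7 ± 20.2 CPM with no overlap. None of the 10 fell, where 2.74% of all genes were called, and their median was -0.16 against 0.00 for all genes tested. In CD27+ cells the chemokine gene Ccl3 fell with CD69, from 217 ± 109 to 46.4 ± 25.8 CPM (-2.23, SE 0.34, adjusted p = 0.000381), none rose (1.85% of all genes called), and the median was 0.14 against -0.01. Ccl3 was -1.08 in CD11b+ cells (adjusted p = 0.0630), where the groups did not overlap either.

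CD27+ libraries differed from CD11b+ libraries in 4 of the 10 ligands, both in CD69- and in CD69+ cells. Ltb was higher, by 3.68 (SE 0.43) and 1.87 (SE 0.38). Lower were the chemokine genes Ccl4 (-3.15 in each, SE 0.35) and Ccl3 (-2.88 and -4.03) and the interferon gamma gene Ifng (-1.32 in each, SE 0.21), with edgeR adjusted p of 0.00497 or less throughout. The shares called over all genes were 12.4% and 1.9%, and the medians were -0.47 against 0.05 for all genes in CD69- cells and -0.16 against 0.02 in CD69+ cells. Tnf passed once, higher in CD27+CD69+ (22.5 ± 9.83 CPM) than in CD11b+CD69- (2.70 ± 2.99 CPM), by 3.03 (SE 0.90, adjusted p = 0.0270). It had 0 counts in 3 of the 6 CD11b+CD69- libraries, while every CD27+CD69+ library was at 12.7 CPM or more. Tnf could thus pass the low-count filter through the population in which it is high, so the call is a description. Ccl3, Ccl4, Ltb and Ifng also passed in that comparison, where 11% of all genes were called. T cells also express Ltb, Ifng and Tnf. The T cell marker sums given above were higher in CD27+ libraries, as was Ltb, while Ifng was lower there. Tnf averaged 2.70, 8.10, 10.2 and 22.5 CPM in the order of the populations. Whether T cells had a part in these values was not tested.

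**Figure D4:**
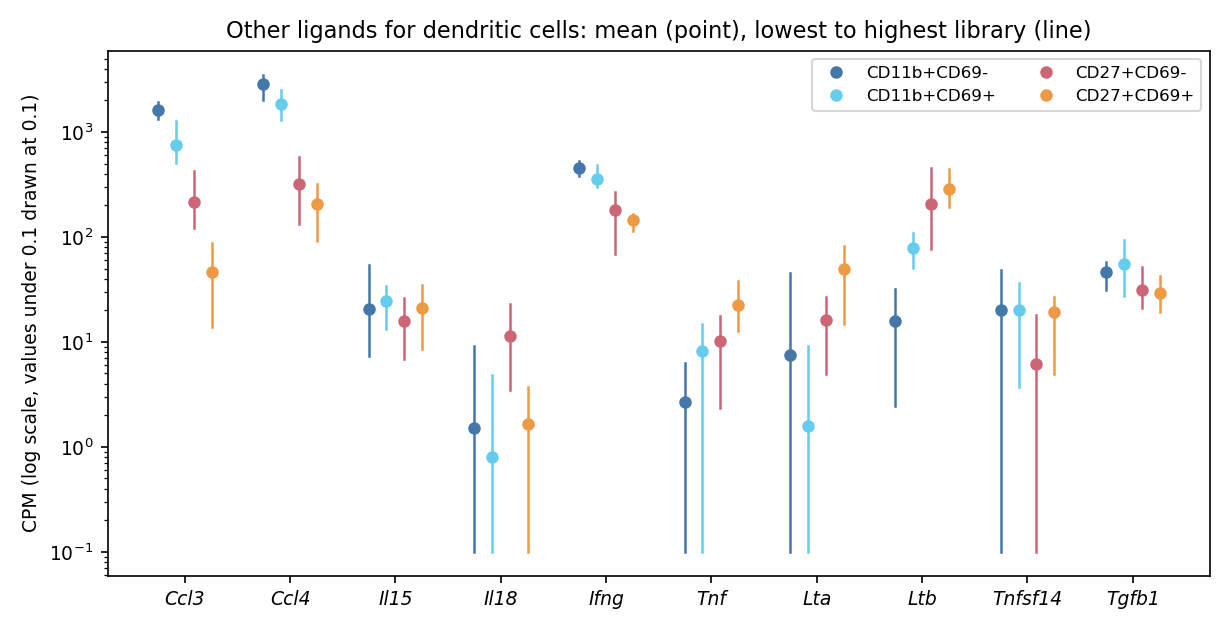
Mean CPM (points, log axis, values under 0.1 drawn at 0.1) and the range from the lowest to the highest library (lines) of the 10 other ligand genes tested, by population. Ccl3, Ccl4 and Ifng step down from CD11b+ to CD27+ populations, and Ltb steps up.

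Among receptor genes for the members, Csf2ra, the alpha chain of the CSF2 receptor, was at 3.63 to 11.0 CPM and passed in no comparison. Csf1r, the receptor for CSF1, had 28 counts over all 24 libraries.

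Of 15 genes of IL-2 and IL-15 signalling, none passed with CD69 in CD11b+ cells (2.74% of all genes called, median 0.31 against 0.00 for all genes) and 3 rose with CD69 in CD27+ cells (1.85% called, median 0.26 against -0.01). The 3 were Cish, a feedback inhibitor induced by STAT5, by 1.10 (SE 0.25, edgeR adjusted p = 0.0157), Myc by 0.72 (SE 0.18, adjusted p = 0.0271) and Il2rg, the shared receptor chain, by 0.51 (SE 0.11, adjusted p = 0.0131). Il2ra was at 1.78 ± 4.36, 24.3 ± 22.7, 3.22 ± 3.24 and 23.8 ± 8.53 CPM. Its difference with CD69 was 3.73 in CD11b+ (adjusted p = 0.0555) and 2.86 in CD27+ cells (adjusted p = 0.185). It passed between CD27+CD69+ and CD11b+CD69- (3.70, SE 1.06, adjusted p = 0.0213), where 11% of all genes were called. Il2ra had 0 counts in 5 of the 6 CD11b+CD69- libraries and passed the low-count filter through the CD69+ libraries. The direction of that call was thus nearly fixed beforehand. In CD69- cells CD27+ libraries were lower than CD11b+ libraries in 3 of the 15, Bcl2 (-0.80), Cish (-0.91) and Il2rg (-0.48), and higher in Socs3 (0.97). There 12.4% of all genes were called, and the median of the 15 was -0.12 against 0.05 for all genes.

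Among 20 tested transcription factors, Klf2 was the 1 that passed with CD69 in CD11b+ cells, where it fell from 764 ± 38.0 to 354 ± 52.7 CPM (-1.11, SE 0.14, edgeR adjusted p = 9.55e-06) with no overlap. None passed with CD69 in CD27+ cells. Of all genes, 2.74% and 1.85% were called in these CD69 contrasts. The medians of the 20 were -0.19 against 0.00 for all genes and -0.06 against -0.01. Between CD27+ and CD11b+ cells, 8 of the 20 were lower among CD69- cells, with Klf2 (-1.53), Tbx21 (-1.14), Bhlhe40 (-1.04) and Jund (-0.82) among them, and 3 among CD69+ cells. The shares called over all genes were 12.4% and 1.9%, and the medians were -0.46 against 0.05 and -0.30 against 0.02. Adam17 and Adam10, proteases that release membrane-bound ligands from cells, did not pass with CD69 in either kind of cell. Adam17 was lower in CD27+CD69+ (48.4 ± 23.2 CPM) than in CD11b+CD69- libraries (116 ± 39.5 CPM), a difference of -1.26 (SE 0.35, adjusted p = 0.0175).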

How the data were processed

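The data deposited by the authors are raw counts by Ensembl gene in 24 libraries, made per the labels' protocols with SMART-Seq v4 and Nextera XT from 100 cells each. This chemistry carries no strand and no molecular identifiers, so floors cover counting error only. The submitters' processing notes name GRCm38, HTSeq and Picard. The sources used here do not give the aligner, annotation release or strand setting.

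Tests were edgeR 4.0.16 quasi-likelihood fits (TMM, filterByExpr with a minimum count of 10, robust) of 4 group means to all libraries in R 4.3.3, with Benjamini-Hochberg adjustment over 10536 genes and a threshold of 0.05. CPM are TMM-scaled, and ± is SD. Alternatives were DESeq2 1.42.0, limma 3.58.1 voom, other scalings, no filter, a replicate block, marker covariates and leaving out each library. The edgeR step was tested on simulated counts. Replicates within a population differed by more than counting noise (chi-square per degree of freedom 10.3 to 32.3 over 60 pairs). The labels do not say that replicates are separate animals, and the p-values then reflect just the spread among samples, which may be technical.

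The members and lists were chosen with earlier results of these data known. Named genes are the members, up to 4 called genes with the smallest p per list and comparison, genes a result turns on, and the 4 genes most like each member among those with at least 10 CPM on average. Positions and 3′ UTRs came from GENCODE for GRCm38, and promoter windows from RefSeq (GRCm38.p6), which held 4 of the 5 members. Gm20743, Gm45713, Rpl13a and Il3 were named for their position. Results of 1 receptor gene are not reported here.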

Additional observations from a re-analysis of the deposited data

Results flagged for a closer look

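In 6 of 34 groups of 6 libraries, the highest library stood apart from the others by more than Dixon's limit. The limit is set to flag about 1 in 20 groups of normally distributed values. Groups in which most libraries had no counts are not of that kind, so the number of flags cannot be compared with chance. For Csf1 these were 1 CD11b+CD69+ library at 9.12 CPM and 1 CD27+CD69+ library at 0.807 CPM, the latter resting on 2 counts. The fibroblast marker sum was flagged in 1 CD11b+CD69- library at 8.02 CPM and in 1 CD27+CD69+ library at 11.6 CPM. No other CD27+CD69+ library had counts of Csf1 or of the fibroblast markers, so these CD27+CD69+ flags would follow at any level. The melanoma marker sum was flagged in 1 CD11b+CD69+ library at 28.2 CPM and in CD27+CD69- replicate 6 at 5860 CPM.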

How the results depend on the processing

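Differences are on the log2 scale and the cause of each shift was not tested. Of 243 values of the members under alternatives other than leaving out a library, 214 kept direction and side of the threshold, and with a library left out 379 of 384 did. All 40 levels moved by less than the SD when CPM used RLE factors or none. The limits are few: 6 libraries a population, up to 2.47 CPM at 3 counts, fibroblast sums that nearly coincide with CD27+CD69-, and T cell sums that nearly coincide with CD27. The T cell covariate and the scaling to Ncr1, Klrb1c, Klrk1 and Klrd1 were chosen after seeing the data. That scaling moved the median of all genes by 0.09, -0.33, 0.76, 0.32, 0.41, 0.66 and -0.44 in 7 comparisons: CD69 in CD11b+, CD69 in CD27+, CD27 against CD11b in CD69-, the same in CD69+, CD27+CD69+ minus CD11b+CD69-, CD27+CD69- minus CD11b+CD69+, and the difference of CD69 contrasts. Fits to only the populations compared could test Csf2 in 1 comparison, since it was filtered out of the others.

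With limma-voom, Csf2 with CD69 in CD11b+ was 4.46 and Csf2 in CD27+CD69- minus CD11b+CD69+ was -3.52, neither called, while the difference of CD69 contrasts of Ccl5 was called at 0.68 (0.64 with DESeq2). DESeq2 also called Csf2 in CD27+CD69+ minus CD11b+CD69- (3.22). In a fit of the populations alone Xcl1 in CD69- cells was 0.89 and not called.

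With fibroblast, melanoma and macrophage covariates, Flt3l reversed to -0.27 (CD69 in CD27+), 0.66 (CD27 against CD11b in CD69-) and -0.064 (difference of CD69 contrasts), and Csf2 to -2.46 (CD27 against CD11b in CD69-). Calls were lost for Xcl1 with CD69 in CD27+ (0.086), and in CD27+CD69- minus CD11b+CD69+ for Xcl1 (-0.095), Csf2 (-8.42) and Ccl5 (-0.35).

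With the T cell covariate, Flt3l reversed to -0.44 (CD27 against CD11b in CD69+), -0.86 (CD27+CD69+ minus CD11b+CD69-) and -0.77 (CD27+CD69- minus CD11b+CD69+), Xcl1 to -0.32 (CD27 against CD11b in CD69-) and Csf2 to 1.62 (the same in CD69+). Calls were lost for Xcl1 with CD69 in CD27+ (0.90) and in CD27+CD69+ minus CD11b+CD69- (0.58), and for Csf2 in CD27+CD69- minus CD11b+CD69+ (-1.18).

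Scaled to the NK receptor genes, Flt3l was 0.43 (CD27 against CD11b in CD69-) and Xcl1 0.18 (the same in CD69+), both reversed. Ccl5 with CD69 in CD27+ (-0.58), Csf2 in CD27+CD69+ minus CD11b+CD69- (3.42) and the difference of CD69 contrasts of Xcl1 (-1.39) were then called, and Ccl5 in CD27+CD69- minus CD11b+CD69+ (-0.11) was not.

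Leaving out a library, Ccl5 with CD69 in CD27+ ran from -0.41 to -0.25, called without CD27+CD69- replicate 6. Flt3l in CD27+CD69- minus CD11b+CD69+ ran from -0.22 to 0.20, below 0 without CD11b+CD69+ replicate 1 (-0.08), 3 (-0.06) or 6 (-0.08) or CD27+CD69- replicate 1 (-0.22). The replicate numbers are shared by the populations, but same-numbered libraries did not deviate together (36 correlations from -0.03 to 0.19, 6 of 24 libraries best with their own number). With the replicate block, Flt3l in that comparison was -0.043, no member's call changed, and the counts of genes called became 273, 254, 1275, 198, 1126, 632 and 65 in the order above.

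The genes called numbered 289, 195, 1304, 200, 1159, 652 and 61 in that order. For CD69 in CD11b+ they were 483 with DESeq2 and 188 with no filter. For CD69 in CD27+ they were 405 with no filter, 293 with limma-voom, 4 with the fibroblast, melanoma and macrophage covariates, 110 with the T cell covariate, 385 with NK receptor scaling, and 121 to 393 with a library left out (319 without CD27+CD69- replicate 5, 121 without its replicate 6, 393 without CD27+CD69+ replicate 6). For CD27 against CD11b they were 45, 457 and 4300 in CD69- (fibroblast, melanoma and macrophage covariates, T cell covariate, NK receptor scaling), and 316 (DESeq2), 19 (T cell covariate) and 524 (NK receptor scaling) in CD69+. CD27+CD69+ minus CD11b+CD69- gave 144 with the T cell covariate and 2006 with NK receptor scaling. CD27+CD69- minus CD11b+CD69+ gave 1105 with no filter, 11 and 332 with the covariates and 3434 with NK receptor scaling. The difference of CD69 contrasts gave 169 with DESeq2, 7 with the fibroblast, melanoma and macrophage covariates, 113 with NK receptor scaling, and 37 to 107 with a library left out (37 without CD11b+CD69- replicate 4, 40 and 107 without CD27+CD69+ replicates 4 and 6).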
